A study of Mus musculus with 12 samples.

Results

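The cytosolic ribosomal protein genes are the genes for the protein parts of the ribosome that translates messenger RNA outside the mitochondria. They were taken from the count table by name: a symbol beginning with Rpl or Rps followed by a digit, or Rplp0, Rplp1, Rplp2 or Rpsa, without the S6 kinases and without names ending in -ps. This gave 87 of the 21834 genes in the table, 52 with large-subunit (Rpl) and 35 with small-subunit (Rps) names. Counts by subunit follow these names, so those of the small subunit include Rps19bp1, which binds Rps19 and is not part of the ribosome. A level of at least 0.5 counts per 1000000 counts of the library (CPM) in at least 3 libraries was reached by 84 of them, and the statements on changes below concern those 84. The other 3 were Rpl10l and Rpl39l, paralogues with testis-biased expression, and Rps23rg1, a retrogene; their highest values in any library were 0.04, 0.44 and 0.08 CPM. Of the 87, 77 carry the name of a protein of the standard mammalian ribosome and 10 are paralogues or genes that only share the prefix. Fau and Rack1, which encode small-subunit proteins under other names, are given separately.

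The data were mRNA sequencing counts from BV2 cells, an immortalised mouse microglial line. A line with a control short hairpin RNA (shCtrl) and a line with a hairpin against annexin A2 (shAnxa2), both made by lentiviral transduction and puromycin selection, were either left untreated (CTRL) or exposed to oxygen-glucose deprivation and reoxygenation (OGDR). Per the labels, deprivation lasted 4 h and reoxygenation 12 h; the study's methods describe a longer reoxygenation for this cell model. Each of the 4 groups (shCtrl-CTRL, shCtrl-OGDR, shAnxa2-CTRL and shAnxa2-OGDR) had 3 libraries, with 19521877 to 27288843 counts per library. Each hairpin was represented by 1 cell line, so an effect of the hairpin and a difference between lines cannot be told apart, and all 4 groups carry a vector and were selected. The 3 libraries of a group are called biological replicates in the study; p-values measure the spread between them.

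The groups follow the sample titles. A second label field instead names every OGDR sample as a knockdown and every CTRL sample as wild type. Anxa2 itself followed the titles: its level was 172 ± 6.36 CPM (SD, n = 3) in shCtrl-CTRL, 279 ± 24.3 in shCtrl-OGDR, 40.4 ± 4.86 in shAnxa2-CTRL and 19.6 ± 1.26 in shAnxa2-OGDR. No targeted gene checks the treatment labels in the same way. Across all 11626 genes tested, the log2 fold change with OGDR in the shCtrl line and that in the shAnxa2 line had a Pearson correlation of -0.80, a description across genes that share libraries. Of the 5240 genes called in both lines, 5165 changed in opposite directions. These counts cannot tell apart a response of opposite sign in the shAnxa2 line and an exchange of its CTRL and OGDR titles. An exchange would turn the sign of every OGDR value in the shAnxa2 line and change both comparisons of the lines and the interaction, so all of these are given as the titles have them. All 12 microglia and macrophage markers passed the filter, with a summed level of 1967 to 2176 CPM in the shCtrl libraries and 1782 to 1927 CPM in the shAnxa2 libraries. Neuronal markers summed to at most 0.76 CPM in any library, with Snap25 and Syt1 at 0 throughout. Astrocyte, oligodendrocyte, endothelial and fibroblast markers summed to at most 0.97, 6.61, 2.19 and 0.38 CPM, with Aqp4, Mog and Dcn at 0. Their part in the results was not tested. The first shAnxa2-OGDR library held 66525 counts of Lars2, against at most 2670 in any other library.

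As background, a ribosome contains 1 copy of nearly every ribosomal protein, and the cell makes the proteins in matched amounts. Most of their mRNAs begin with a cytosine followed by a run of pyrimidines, the 5′ terminal oligopyrimidine (TOP) tract, through which the kinase complex mTORC1 and the RNA-binding protein Larp1 set their translation and stability. Ribosome assembly takes place largely in the nucleolus and needs many proteins that are not part of the finished particle. In microglia, as in other cells, much of the energy of a growing cell goes into this pathway.

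Start-site sequences were available in RefSeq (GRCm38.p6) for 64 of the 84 members, in 76 promoters. A cytosine followed by at least 6 further C or T bases began within 25 bases of the annotated start in 43 of these 76 promoters (56.6%), against 24.6% of all 32841 promoters of the same length. On either strand, the 300-base promoters held CCGGAAG, the core bound by ETS factors such as GABP, in 34.2% of member promoters and 8.86% of all, and AAGATGGC, a YY1-type motif, in 10.5% and 2.75%. The end of the first motif can overlap the start of the second at the letters AAG. A match is a description and not a site. The windows below run from 20 bases before the annotated start to 10 bases from it onward, with the longest run of C and T in capitals; they are those of the members that responded most differently in the 2 lines and have an entry. First come members lower in the interaction described below, then members higher in it.
Rpl5, chr5:107900508-107900537, plus strand: CTCTTTCTCacgtcgcttgcgtgctggtgg
Rps25, chr9:44407694-44407723, plus strand: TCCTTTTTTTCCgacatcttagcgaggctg
Rpl10a, chr17:28328451-28328480, plus strand: gcgtggtggcgCCCCCCCagcggccgcaaa
Rps7, chr12:28635944-28635973, minus strand: gaagagCTTCCggtttccacccacctactt
Rpl37a, chr1:72711240-72711269, plus strand: gtcaCTTCCgctcgccggtctaaaaccgcg
Rps10, chr17:27635235-27635264, minus strand: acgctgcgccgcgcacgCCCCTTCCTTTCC
Rpl36al, chr12:69184058-69184087, minus strand: gttcgcaTTCCCgtcgctcaggttcagttc
Rps19bp1, chr15:80264297-80264326, minus strand: accgccagggcggaagtagCTCgccgcgtg
Within these windows, long pyrimidine runs occurred in both sets. They had 12 bases in Rps25 and 9 in Rpl5, which were lower, and 13 in Rps10, which was higher. These runs reach an edge of the window and can extend beyond it. Rps7 and Rpl37a, with 5 bases here, counted as members with a tract, which could begin within 25 bases of the start in any promoter. Rps19bp1, whose product is not part of the ribosome, had a longest run of 3 bases. Rpl23a and Rps29 had no entry. The 39 members with a tract in at least 1 promoter and the 25 without had median log2 fold changes of 0.21 and 0.18 with OGDR in shCtrl cells, and of -0.07 and -0.14 in shAnxa2 cells.

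Levels per length differed widely among members. The 84 members had a median of 566 CPM per kilobase of mRNA over all 12 libraries. The highest were Rpl13 with 3400.2, Rplp0 with 2751 and Rps2 with 2229 CPM per kilobase, and the lowest of those that passed the filter were Rpl3l with 0.889, Rpl24 with 1.26 and Rpl36al with 3.23. Rpl24 encodes a standard large-subunit protein, and its 12 libraries lay between 0.44 and 1.17 CPM. A ribosomal protein mRNA shares long stretches with its processed pseudogenes, so reads can be lost or split in counting. Of the stretches of 50 bases in a member's main transcript, a median of 39.4% occurred in no other annotated gene. This share was 18.3% for Rpl24, 7.57% for Rps10, 6.16% for Rpl5 and 1.35% for Rps27, and their levels are therefore uncertain. It was 97.0% for Rps3, and every stretch of Rps19bp1 and Rpl3l was unique. Several members overlap another gene, among them Rps25 with Trappc4 and Ccdc84, Rpl23a with Tlcd1 and Rpl5 with Dipk1a, each on the opposite strand. Rps10 also overlaps Gm49804, and Rpl36al overlaps Gm49383. The strand setting of the counting is not given in the sources used here, and whether these overlaps bear on the counts was not tested.

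In the deposited mm39 coordinates, Rpl5 lies at chr5:108048368-108056871 and Rps25 at chr9:44318436-44321724, both on the plus strand, and Rpl23a at chr11:78071758-78074410 on the minus strand. Rps29 lies at chr12:69204496-69205960 and Rps19bp1 at chr15:80144816-80148516, both on the minus strand, and Rpl37a at chr1:72750449-72752972 on the plus strand.

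The share of all counts that fell on the 87 genes separated the 4 groups without overlap. It was 4.60%, 4.46% and 4.45% in shCtrl-CTRL, 5.21%, 5.20% and 5.42% in shCtrl-OGDR, 5.67%, 5.68% and 5.94% in shAnxa2-CTRL, and 5.05%, 5.03% and 5.11% in shAnxa2-OGDR. The untreated shCtrl libraries were thus lowest and the untreated shAnxa2 libraries highest. The group means were 4.50% ± 0.08, 5.28% ± 0.12, 5.76% ± 0.15 and 5.06% ± 0.04 (SD, n = 3). Both subunits moved in this order: the large subunit took 2.85%, 3.33%, 3.71% and 3.20% of counts, and the small subunit 1.66%, 1.95%, 2.06% and 1.86%. These shares are descriptions without a test, and fewer cells of a type and less RNA per cell cannot be told apart in such bulk samples.

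**Figure D1:**
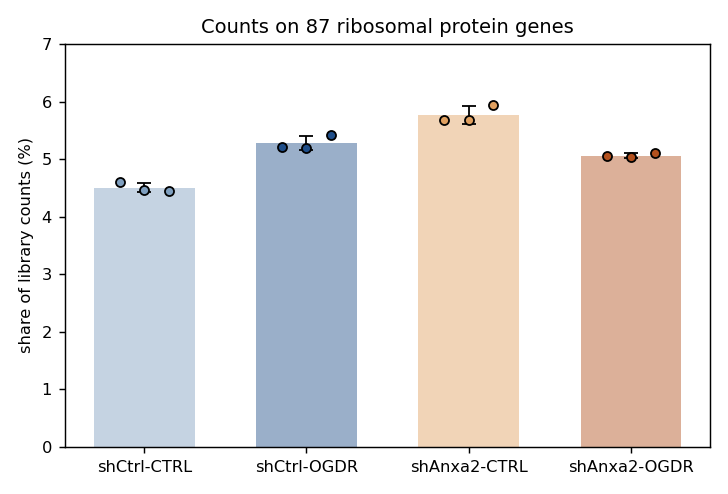
Share of each library's counts on the 87 ribosomal protein genes, in percent, by group. Bars are means, error bars the SD of 3 libraries and points the libraries; shCtrl-CTRL is lowest at 4.45% to 4.60% and shAnxa2-CTRL highest at 5.67% to 5.94%.

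The first comparison asked how OGDR changed these genes in control cells. Most ribosomal protein mRNAs rose slightly: of the 84 members, 51 were higher and 5 lower in shCtrl-OGDR than in shCtrl-CTRL (edgeR quasi-likelihood test, Benjamini-Hochberg adjusted p under 0.05). Among all genes tested, 32.4% were higher and 31.0% lower. The median log2 fold change was 0.20 for members, a rise of 14.97%, and 0.00 for all genes. Of the 84 members, 19 were called higher by at least 1.2-fold, against 25.2% of all genes tested. Rises of this size were thus no more frequent among members than among all genes. No member rose by more than 0.44 on the log2 scale. The large subunit had 33 of 50 higher and 2 lower, and the small subunit 18 of 34 higher and 3 lower.

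Rpl5, which with Rpl11 and the 5S rRNA forms the 5S particle of the large subunit, had 895, 894 and 1001 CPM in shCtrl-CTRL and 1205, 1215 and 1298 CPM in shCtrl-OGDR. All treated libraries lay above all untreated ones, and its log2 fold change was 0.41 ± 0.07 (SE; edgeR adjusted p = 6.9e-06). Rpl3, a large-subunit protein close to the peptidyl transferase centre, had 1357, 1302 and 1331 CPM against 1727, 1715 and 1797 CPM, with a log2 fold change of 0.39 ± 0.04 (edgeR adjusted p = 4.7e-09). Rps3a1 of the small subunit rose by 0.40 ± 0.06 and Rpl23a, at the rim of the exit tunnel where the signal recognition particle docks, by 0.36 ± 0.08 (edgeR adjusted p = 3.1e-06 and 0.00055). Rpl22l1, a paralogue of Rpl22, had the highest value, 0.44 ± 0.17, but at 8.32 to 9.48 CPM in CTRL and 10.95 to 14.39 CPM in OGDR (edgeR adjusted p = 0.029). Its call was lost with DESeq2 (adjusted p = 0.13) and without the third shCtrl-OGDR library, where its log2 fold change was 0.32, and without the first or second shCtrl-CTRL library.

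The 5 members that fell were mostly not standard ribosomal proteins. Rps19bp1, whose product binds Rps19 and is not part of the mature ribosome, had 29.5, 30.1 and 29.9 CPM in shCtrl-CTRL and 19.9, 18.7 and 19.6 CPM in shCtrl-OGDR. Its groups were far apart and its log2 fold change was -0.62 ± 0.07 (edgeR adjusted p = 2.4e-08). Rpl7l1, a paralogue of Rpl7 known from ribosome precursors, had 193, 184 and 186 CPM against 134, 143 and 150 CPM, a change of -0.40 ± 0.05 (edgeR adjusted p = 9.5e-08). The paralogues Rpl36al and Rps27l changed by -0.76 ± 0.28 and -0.46 ± 0.12 (edgeR adjusted p = 0.023 and 0.0023). Rps10, a protein of the small-subunit head, was the only standard member to fall, at -0.50 ± 0.19 (edgeR adjusted p = 0.022), from 7.23, 6.67 and 7.39 CPM to 6.61, 5.30 and 2.77 CPM. Rps10 was no longer called without the third shCtrl-CTRL or the third shCtrl-OGDR library (log2 fold change -0.46 and -0.25), nor Rpl36al without the first shCtrl-CTRL or the second shCtrl-OGDR library (-0.61 and -0.49).

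The counts by role stand beside 32.4% higher and 31.0% lower among all genes. By role, 8 of 9 proteins of the exit tunnel and its rim rose, with Rpl39, a short protein inside the tunnel, at -0.03 ± 0.13. Both proteins of the 5S particle rose, Rpl11 by 0.26 ± 0.07. Of the P-stalk, the flexible arm that recruits elongation factors, Rplp0 and Rplp2 rose by 0.21 ± 0.04 and 0.23 ± 0.06, while Rplp1 was at -0.07 ± 0.05. At the mRNA entry and exit sites of the small subunit 4 of 6 rose, and among proteins of early small-subunit assembly 7 of 11 rose, led by Rps4x at 0.33. Rpl17 of the tunnel list rose by 0.35. Fau and Rack1 rose by 0.18 and 0.21.

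The second comparison asked the same in the shAnxa2 line, and there the members divided. With OGDR, 34 of 84 fell and 13 rose, against 26.8% lower and 28.2% higher among all genes. The median log2 fold change of members was -0.10, a change of -6.48%, against 0.00 for all genes. The large subunit had 22 of 50 lower and 4 higher, and the small subunit 12 of 34 lower and 9 higher.

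Rps25, a small-subunit protein known for its part in initiation at viral internal ribosome entry sites, had 1507, 1199 and 1365 CPM in shAnxa2-CTRL, and with OGDR 891, 920.1 and 816 CPM. Every treated library lay below every untreated one, and the log2 fold change was -0.63 ± 0.07 (edgeR adjusted p = 1.1e-07). Rpl5 had 1383, 1313 and 1410 CPM before and 977, 925 and 756 CPM after OGDR, a change of -0.63 ± 0.07 (edgeR adjusted p = 2.7e-08). Rpl39 fell from 74.4, 87.7 and 75.3 CPM to 53.8, 61.7 and 45.2 CPM, a change of -0.56 ± 0.13 (edgeR adjusted p = 0.00063). Rpl23a and Rps7, the latter a protein needed early in small-subunit assembly, changed by -0.54 ± 0.08 and -0.51 ± 0.05 (edgeR adjusted p = 6.7e-06 and 2.6e-08). These genes lie in different parts of the ribosome.

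Among the members that rose, Rps29 of the small subunit and Rpl37a and Rpl37 of the large subunit had the largest values. Rps29 had 24.8, 33.9 and 26.1 CPM in shAnxa2-CTRL and 35.1, 44.9 and 61.3 CPM in shAnxa2-OGDR, a log2 fold change of 0.74 ± 0.14 (edgeR adjusted p = 7.8e-05). The treated libraries all lay above the untreated ones but differed among themselves, and the value ranged from 0.50 to 0.91 when single libraries were left out. Rpl37a had 30.9, 35.4 and 29.5 CPM against 43.3, 45.9 and 65.3 CPM, a change of 0.69 ± 0.12, and Rpl37 had 160.2, 217 and 180.2 CPM against 264, 274 and 353 CPM, a change of 0.68 ± 0.09 (edgeR adjusted p = 1.9e-05 and 1.5e-06). In all 3 genes the third shAnxa2-OGDR library was the highest. Rps26 and Rps27 of the small subunit rose by 0.56 ± 0.09 and 0.35 ± 0.08. Rps28, Rps23 and Rps12 rose by 0.29, 0.31 and 0.24. Rps27rt, an intronless copy of Rps27 with 2.36 to 4.36 CPM in these libraries, rose by 0.59 ± 0.20 (edgeR adjusted p = 0.018), a call lost without the second shAnxa2-CTRL, the second shAnxa2-OGDR or the third shAnxa2-OGDR library (log2 fold changes 0.53, 0.49 and 0.49).

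Rps19bp1 rose here from 22.2, 22.0 and 24.1 CPM to 35.2, 36.4 and 37.6 CPM, a log2 fold change of 0.67 ± 0.07 (edgeR adjusted p = 1.2e-08), and Rpl7l1 rose by 0.23 ± 0.05. The counts by role stand beside 26.8% lower and 28.2% higher among all genes. In the exit tunnel 6 of 9 fell, and both 5S particle proteins fell. At the mRNA entry and exit sites 2 of 6 rose (Rps26 and Rps28) and 2 fell, and 5 of 11 early assembly proteins fell with 1 higher. In the P-stalk, Rplp0 fell by 0.17 on the log2 scale, and Rplp1 and Rplp2 were at 0.09 and -0.10 without a call. Fau was at -0.09 without a call, and Rack1 fell by 0.11 on the log2 scale.

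**Figure D2:**
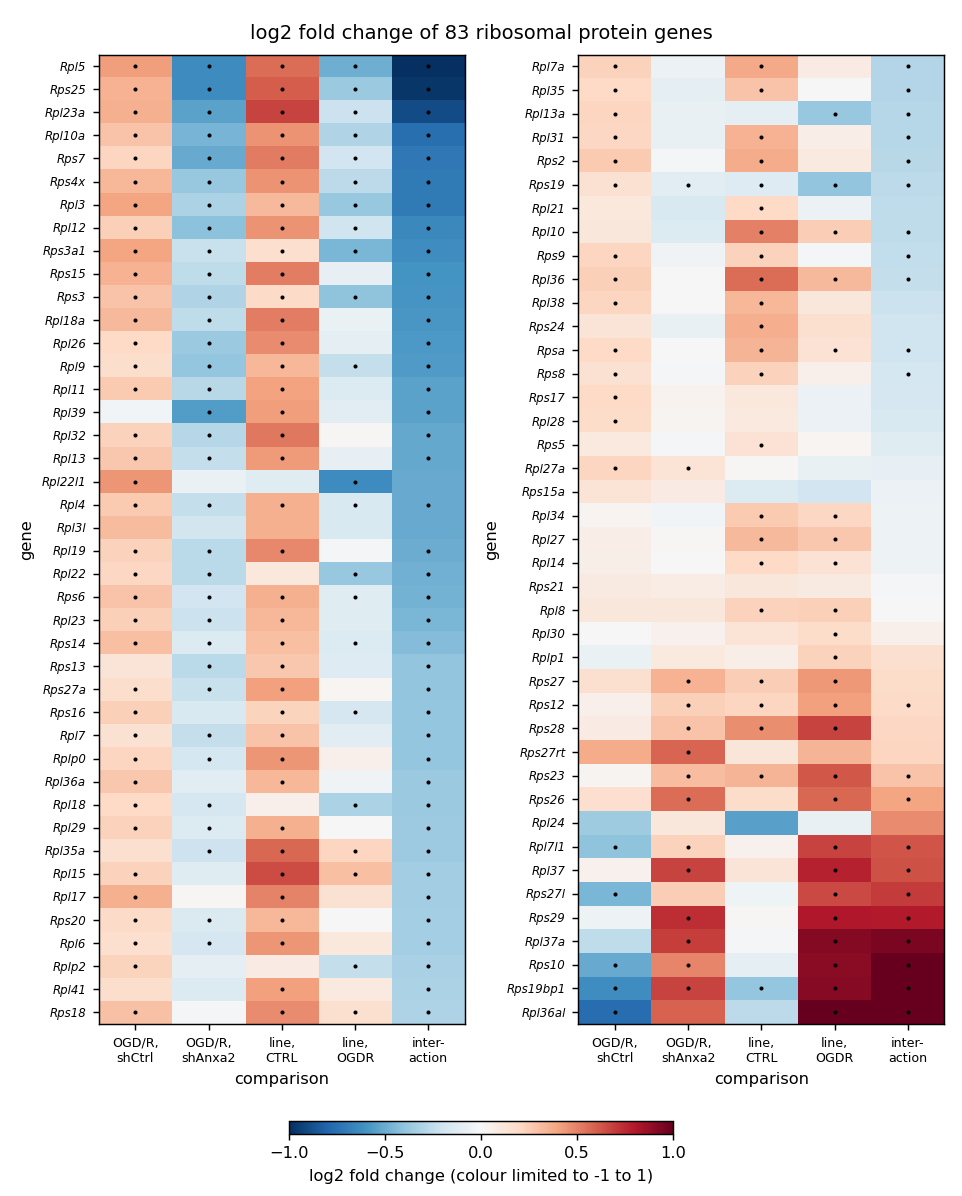
log2 fold change of 83 of the 84 members that passed the filter in the 5 comparisons, ordered by the interaction value; red is higher, blue is lower, colour is limited to -1 to 1, and a dot marks an edgeR adjusted p under 0.05. Most members are red under OGD/R in shCtrl and blue under OGD/R in shAnxa2, and a group at the lower right, with Rps29, Rpl37a and Rps19bp1, shows other signs.

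The responses of the 2 lines rest on separate libraries and can be set side by side. Of the 35 members called in both, 34 had opposite signs: 31 rose in shCtrl and fell in shAnxa2 cells, and 3 (Rpl7l1, Rps10 and Rps19bp1) did the reverse. Rpl27a alone rose in both, by 0.22 ± 0.05 and 0.14 ± 0.05. Among all genes, 5165 of the 5240 called in both had opposite signs, so opposition as such did not set the members apart. Across the 84 members the Pearson correlation of both fold changes was -0.61, against -0.80 over all genes tested. A further 9 members rose in shAnxa2 cells without a call in shCtrl cells (Rpl37, Rpl37a, Rps12, Rps23, Rps26, Rps27, Rps27rt, Rps28 and Rps29), and 16 were called in neither.

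**Figure D3:**
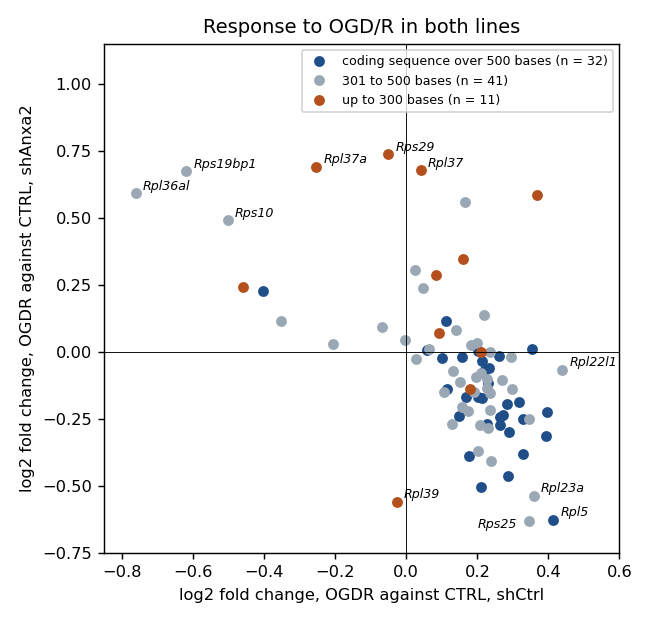
log2 fold change with OGD/R in shCtrl cells (x axis) and in shAnxa2 cells (y axis) for 84 members, coloured by the length of the coding sequence. The main group lies at the lower right, higher in shCtrl and lower in shAnxa2 cells, and several of the 11 shortest members lie near 0 on the x axis and above 0 on the y axis.

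The third comparison set the knockdown line against the control line without treatment. Nearly all ribosomal protein mRNAs that differed were more abundant in the shAnxa2 line: 58 of 84 were higher and 3 lower, against 29.5% higher and 29.7% lower among all genes. The median log2 difference was 0.32, or 25.2%, against 0.00 for all genes, and 46 members were higher by at least 1.2-fold (22.6% of all genes). In the large subunit 35 of 50 were higher, and in the small subunit 23 of 34.

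Rpl15, a core protein of the large subunit, had 555, 497 and 560.5 CPM in shCtrl-CTRL and 766, 827 and 939.95 CPM in shAnxa2-CTRL. The lines did not overlap, and the log2 difference was 0.65 ± 0.06 (edgeR adjusted p = 3.9e-09). Rpl23a had 113, 133 and 134 CPM against 205, 169 and 231 CPM, a difference of 0.68 ± 0.08 (edgeR adjusted p = 1.7e-07). Rps25 had 975, 903 and 797 CPM in shCtrl-CTRL and was higher by 0.61 ± 0.07 in shAnxa2-CTRL. Rpl35a and Rpl36, both of the large subunit, were higher by 0.58 ± 0.08 and 0.56 ± 0.07. The lower members included Rps19bp1 at -0.39 ± 0.07 and Rps19 at -0.13 ± 0.05 (edgeR adjusted p = 2.8e-05 and 0.020). Without the second shCtrl-CTRL library 1 lower member was left. Rps19 lost its call without the second or the third shCtrl-CTRL or the second shAnxa2-CTRL library (log2 differences -0.11, -0.12 and -0.10).

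By role, 8 of 9 exit tunnel proteins, both 5S particle proteins, 5 of 6 proteins of the mRNA entry and exit sites and 10 of 11 early assembly proteins were higher. Among all genes, 29.5% were higher. Of the P-stalk, Rplp0 was higher by 0.44 ± 0.04, with 3141, 3139 and 3228 CPM in shCtrl-CTRL and 4249, 4093 and 4541 CPM in shAnxa2-CTRL, and Rplp1 and Rplp2 were at 0.07 and 0.08 without a call. Rps29, Rpl37a and Rpl37, which rose most with OGDR in the shAnxa2 line, were at 0.01, -0.02 and 0.13 here, none of them called. Fau and Rack1 were both higher by 0.42.

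The fourth comparison set the lines against each other after OGDR. Here the members had no common direction: 25 members were higher and 21 lower in shAnxa2-OGDR, against 33.8% and 34.2% of all genes, and the median log2 difference was -0.01 against 0.00 for all genes. A count of 46 of 84 called compares with 67.9% of all genes. The members differed in kind. Rpl37a had 25.2, 27.5 and 29.0 CPM in shCtrl-OGDR and was higher by 0.92 ± 0.12 in shAnxa2-OGDR (edgeR adjusted p = 1.8e-07). Rps29, at 26.5, 27.6 and 27.2 CPM in shCtrl-OGDR, was higher by 0.80 ± 0.14 and Rpl37 by 0.77 ± 0.09. Rps19bp1 was higher by 0.91 ± 0.07 and Rps10 by 0.90 ± 0.18 (edgeR adjusted p = 2.3e-11 and 0.00015). Rpl36al was higher by 1.09 ± 0.28, from 1.33, 0.69 and 1.28 CPM to 2.30, 1.95 and 2.76 CPM (edgeR adjusted p = 0.0015).

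Lower in shAnxa2-OGDR were Rpl22l1 by -0.63 ± 0.18, Rpl5 by -0.48 ± 0.07, Rps3a1 by -0.45 ± 0.06, Rps3 by -0.40 ± 0.05 and Rps19 by -0.39 ± 0.05 on the log2 scale. Rps3, a protein at the mRNA entry site, had 1431, 1455 and 1393 CPM in shCtrl-OGDR and 1106, 1026 and 1111 CPM in shAnxa2-OGDR (edgeR adjusted p = 4.8e-07). The share of stretches of 50 bases unique to the gene was 97.0% for Rps3 and 46.4% for Rps19, and 34.4%, 6.16% and 29.0% for Rpl22l1, Rpl5 and Rps3a1. In the P-stalk the members split, with Rplp1 higher by 0.23 ± 0.05, Rplp2 at -0.24 ± 0.06, also called, and Rplp0 at 0.05 ± 0.04 without a call. In the exit tunnel 3 of 9 were lower, near the 34.2% of all genes. At the entry and exit sites 3 of 6 were higher and 2 lower, and of the early assembly proteins 1 of 11 was higher and 5 lower. Among all genes, 33.8% were higher and 34.2% lower. The counts by role were not tested against these shares.

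The interaction asks whether OGDR acted differently in the lines, as the shAnxa2 log2 fold change minus the shCtrl one. It was negative for 51 and positive for 11 of 84 members by the edgeR test, against 35.1% and 34.9% of all genes. The median was -0.30 for members and -0.01 for all genes, and 45 members were lower by at least 1.2-fold (32.5% of all genes). All 9 exit tunnel proteins and both 5S particle proteins were lower, as were 8 of 11 early assembly proteins and 4 of 6 at the entry and exit sites. In the large subunit 33 of 50 were lower and 4 higher, and in the small subunit 18 of 34 were lower and 7 higher.

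The strongest values were those of Rpl5 at -1.04 ± 0.09, Rps25 at -0.98 ± 0.10, Rpl23a at -0.89 ± 0.12, Rpl10a at -0.75 ± 0.08 and Rps7 at -0.72 ± 0.08 (edgeR adjusted p = 4.8e-10, 8.6e-09, 2.6e-07, 2.1e-08 and 7.4e-09). Rpl10a forms the L1 stalk at the tRNA exit site. In the other direction were Rpl36al at 1.35 ± 0.39, Rps19bp1 at 1.29 ± 0.10, Rps10 at 0.99 ± 0.26, Rpl37a at 0.94 ± 0.16 and Rps29 at 0.79 ± 0.20 (edgeR adjusted p = 0.0037, 1.5e-11, 0.0015, 1.9e-05 and 0.001). All 10 kept their call whichever library was left out.

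**Figure D4:**
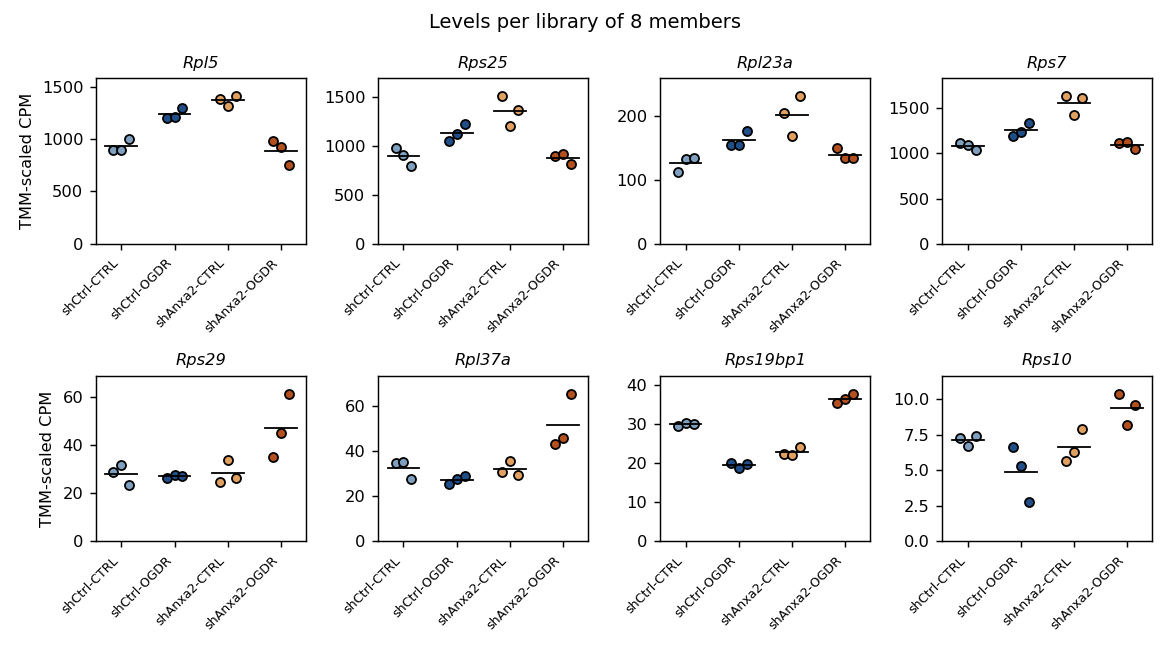
TMM-scaled CPM in every library for Rpl5, Rps25, Rpl23a and Rps7 (upper row, lower in the interaction) and for Rps29, Rpl37a, Rps19bp1 and Rps10 (lower row, higher in it); lines are means of 3 libraries. In the upper row shCtrl-OGDR and shAnxa2-CTRL are the higher groups, and in the lower row shAnxa2-OGDR is highest.

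Coding length, which the choice of genes did not use, went with the members' changes. The 11 members with a coding sequence of up to 300 bases had median log2 fold changes of 0.08 with OGDR in shCtrl cells and 0.29 in shAnxa2 cells, and the 32 members over 500 bases had 0.23 and -0.18. Of the 32 longest, 26 rose in shCtrl cells and 18 fell in shAnxa2 cells. Among other genes over 500 bases, 32.4% rose in shCtrl cells and 27.2% fell in shAnxa2 cells. Of the 11 shortest, 1 rose and 1 fell in shCtrl cells while 6 rose and 1 fell in shAnxa2 cells. Among other genes of up to 300 bases, 28.4% rose and 24.9% fell in shCtrl cells, and 25.8% rose and 26.2% fell in shAnxa2 cells. Over all 84 members the Spearman correlation of coding length with the log2 fold change was 0.36 in shCtrl and -0.42 in shAnxa2 cells, and -0.41 with the interaction. Over the 11502 other genes with a known length these were -0.013, -0.0047 and 0.0046. In the comparisons of the lines, members had correlations of 0.24 without treatment and -0.38 after OGDR. The other genes had -0.12 and -0.09 there. Other genes with up to 300 coding bases (n = 229) had medians of 0.05 and -0.01 with OGDR in shCtrl and shAnxa2 cells. The short members that rose in shAnxa2 cells were Rpl37, Rpl37a, Rps27, Rps27rt, Rps28 and Rps29. In each of them the third shAnxa2-OGDR library was the highest of its group, so their size of change leans on that library. The correlations are descriptions across genes that share libraries. Whether length itself or a property that goes with it bears on these values was not tested.

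Counting was considered through the 30 members of which at least 50% of the stretches were unique. Of these, 14 rose and 3 fell with OGDR in shCtrl cells (median 0.18), against 32.4% and 31.0% of all genes. In shAnxa2 cells 7 rose and 12 fell (median -0.05), against 28.2% and 26.8%. In the untreated shAnxa2 line 17 were higher and 2 lower (median 0.21), against 29.5% and 29.7%. In the interaction 14 were lower and 7 higher (median -0.22), against 35.1% and 34.9%. The 54 members with less unique sequence had medians of 0.20, -0.10, 0.34 and -0.31. The directions of the medians were thus the same in both sets, but all were smaller in size among the 30 members. In shAnxa2 cells the median of -0.05 was small. Whether counting bears on the difference between the sets was not tested.

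The paralogues of standard ribosomal proteins had lower levels than their partners, and some moved in another direction. Per kilobase, Rpl22 exceeded Rpl22l1 by 22.0-fold, Rps27 exceeded Rps27l by 10.5-fold, Rpl36a exceeded Rpl36al by 91.2-fold and Rpl7 exceeded Rpl7l1 by 6.85-fold. The share of unique stretches was 1.35% for Rps27, 14.5% for Rpl36a and 36.7% for Rpl36al, so the ratios with these genes are uncertain. Rpl36a, Rps27 and Rpl7 were at 0.27, 0.16 and 0.15 with OGDR in shCtrl cells, of which the first and last were called, while Rpl36al, Rps27l and Rpl7l1 fell as given above. In the interaction Rpl36a and Rpl7 were at -0.37 and -0.39, both called, and Rpl36al, Rps27l and Rpl7l1 at 1.35, 0.70 and 0.63, all called; Rps27 was at 0.19 without a call. Rpl22l1 and Rpl22 had the same sign with OGDR in either line, and both were called higher in shCtrl cells (0.44 and 0.21) and lower in shAnxa2-OGDR than in shCtrl-OGDR (-0.63 and -0.38). Rps27rt and Rps27 were both called higher with OGDR in shAnxa2 cells. Rpl3l, the paralogue of heart and skeletal muscle, had 0.59 to 1.87 CPM per library and an interaction value of -0.50 that was not called, against -0.71 for Rpl3.

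Genes of the same pathway that are not ribosomal proteins were counted from fixed lists. Their counts stand beside the shares of all genes called. With OGDR, 32.4% rose and 31.0% fell in shCtrl cells, and 28.2% rose and 26.8% fell in shAnxa2 cells. In the untreated shAnxa2 line 29.5% were higher and 29.7% lower, after OGDR 33.8% and 34.2%, and in the interaction 34.9% and 35.1%. Other mRNAs with a TOP tract, such as those of elongation factors, had smaller medians: of 19 tested, Fau and Rack1 included, 11 rose and 4 fell with OGDR in shCtrl cells (median 0.12), 4 rose and 5 fell in shAnxa2 cells (median 0.02), and 13 were higher and 3 lower in the untreated shAnxa2 line (median 0.20). Eef1a1, which carries aminoacyl-tRNA to the ribosome, was at 0.35, -0.43 and 0.46 in these comparisons. Nap1l1, a histone chaperone, had the opposite sign in each, at -0.43, 0.35 and -0.35. In the interaction 9 of the 19 were lower and 4 higher.

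Ribosome assembly and rRNA synthesis genes moved the other way from the ribosomal proteins themselves. Of 35 tested, 32 fell and 1 rose with OGDR in shCtrl cells, with a median log2 fold change of -0.59, and 30 rose and 2 fell in shAnxa2 cells, with a median of 0.47. In the untreated shAnxa2 line 26 were lower and 5 higher (median -0.32), after OGDR 34 were higher and 1 lower (median 0.75), and in the interaction 33 were higher and 1 lower (median 1.07). Heatr1, a part of the nucleolar complex that processes the small-subunit rRNA, had 369.8, 353 and 357 CPM in shCtrl-CTRL, 165, 168 and 163 CPM in shCtrl-OGDR, 227, 229 and 226 CPM in shAnxa2-CTRL, and 379, 376 and 343 CPM in shAnxa2-OGDR. In shCtrl cells OGDR changed it by -1.12 on the log2 scale. Nop2, an rRNA methyltransferase, was at -1.03, and Rrp9 and Tsr1 at 0.75 and 0.72 in shAnxa2 cells. Taf1b, a subunit of the RNA polymerase I initiation factor, was the exception that rose in shCtrl cells, by 0.63, and fell in shAnxa2 cells, at -0.61. Rps19bp1 and Rpl7l1, the members tied to assembly, had the sign of this list's median with OGDR in both lines, after OGDR and in the interaction.

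Of 18 regulators of TOP mRNA translation and mTORC1, 8 rose and 5 fell with OGDR in shCtrl cells (median 0.09) and 7 rose and 5 fell in shAnxa2 cells (median 0.02). Among all genes, 32.4% rose and 31.0% fell in shCtrl cells, and 28.2% rose and 26.8% fell in shAnxa2 cells. In the untreated lines 7 regulators were higher and 7 lower, after OGDR 5 and 8, and in the interaction 5 and 8. The counts of this list were not tested against the shares of all genes. Myc, a transcription factor of growth genes, had 1.96, 2.71 and 2.87 CPM in shCtrl-CTRL and 11.1, 9.73 and 9.37 CPM in shCtrl-OGDR, a log2 fold change of 1.99, and was at -1.42 in shAnxa2 cells. Ddit4, an inhibitor of mTORC1 induced by stress, was at 1.57 and -1.49. Mlst8, a subunit of mTORC1, and Larp1 were at -0.80 and -0.42 in shCtrl cells, and at 0.58 and 0.36 in shAnxa2 cells, all called by edgeR.

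Mitochondrial ribosomal proteins, which are made in the cytosol for a separate ribosome, had medians opposite in sign to the members' with OGDR in both lines. Of 77 tested, 15 rose and 31 fell with OGDR in shCtrl cells (median -0.10). In shAnxa2 cells 33 rose and 9 fell (median 0.12). In the untreated shAnxa2 line 23 were higher and 19 lower (median 0.03), against 29.5% and 29.7% of all genes. After OGDR 47 were higher and 12 lower (median 0.25). In the interaction 38 were higher and 16 lower (median 0.18). Nuclear-encoded subunits of oxidative phosphorylation had medians of the same sign as the members' in the first 3 comparisons and the interaction: of 73 tested, 36 rose and 4 fell in shCtrl cells (median 0.17), 14 rose and 22 fell in shAnxa2 cells (median -0.09), 48 were higher and 1 lower in the untreated shAnxa2 line (median 0.24), 20 were higher and 15 lower after OGDR (median 0.01), and 6 were higher and 38 lower in the interaction (median -0.25). These lists are described by counts and medians only, and the differences between lists were not tested.

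**Figure D5:**
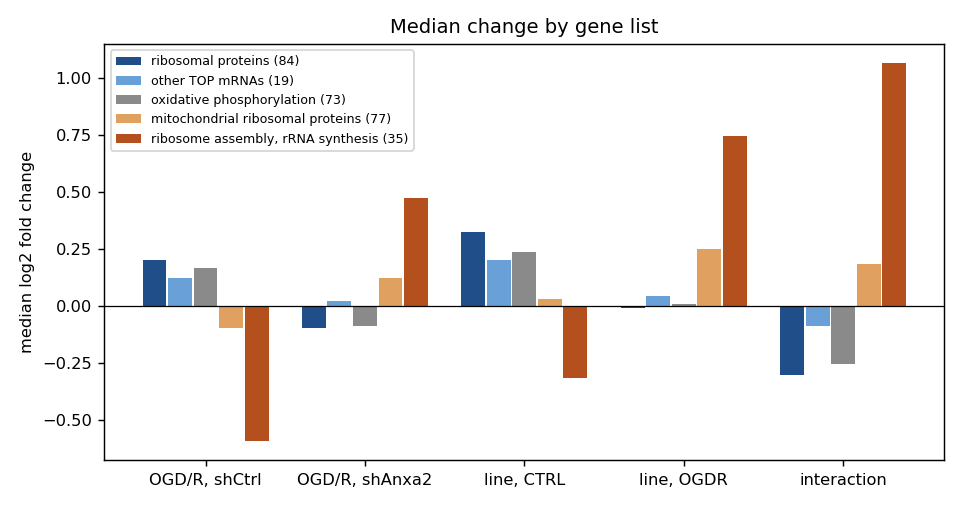
Median log2 fold change in the 5 comparisons for the ribosomal proteins (84 genes) and 4 other lists, with the number of genes tested in the key. Ribosomal proteins and assembly genes lie on opposite sides of 0 under OGD/R in either line, without treatment and in the interaction, with medians of -0.30 and 1.07 in the interaction.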

How the data were processed

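RNA sequencing libraries from 12 BV2 samples were analysed from the raw gene counts the authors deposited in a single table of 21834 protein-coding genes with mm39 coordinates; 12 further per-sample columns, counts scaled with DESeq2 per the file headers, were not used. The submitters' processing notes name HISAT2 2.0.4 and mm39; the counting program and its strand setting for these samples are not given in the sources used here. Counts were fitted over all 12 libraries with the quasi-likelihood test of edgeR 4.0.16 (R 4.3.3), with TMM factors, and p-values were adjusted over the 11626 genes with at least 0.5 CPM in at least 3 libraries. A gene was called at an adjusted p under 0.05. Printed CPM values use TMM-scaled library sizes; standard errors are those of the log2 fold change. Alternatives used DESeq2 1.42.0, limma 3.58.1 (voom), other scalings and filters, the replicate number as a block, and left out each library in turn. Transcript lengths and shared stretches of 50 bases came from GENCODE M21 (GRCm38), and promoters from RefSeq (GRCm38.p6). The scripts were tested on simulated data.

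Named in each comparison were the 5 members per direction with the largest change among those called with a mean of at least 1 CPM, together with role groups, paralogues and 12 gene lists fixed in the design; the values of some single genes are not reported here. The members and lists were chosen with earlier results of these data known, so no list is independent evidence of its direction. With 19521877 to 27288843 counts per library, members under about 10 CPM have the widest errors; intervals cover counting error and the spread between 3 libraries only.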

Additional observations from a re-analysis of the deposited data

Results flagged for a closer look

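With the titles as given, 51 of 84 members were called negative and 11 positive by the interaction term of the edgeR fit. Among all genes tested, 35.1% were called negative and 34.9% positive. An exchange of the CTRL and OGDR titles of the shAnxa2 line would change these values. The 10 named interaction values met the same criterion. They were -1.04 for Rpl5, -0.98 for Rps25, -0.89 for Rpl23a, -0.75 for Rpl10a and -0.72 for Rps7, and 1.35 for Rpl36al, 1.29 for Rps19bp1, 0.99 for Rps10, 0.94 for Rpl37a and 0.79 for Rps29 on the log2 scale. Rpl36al and Rps10 rest on means of 1.70 and 6.99 CPM, and Rps10 and Rpl5 on 7.57% and 6.16% unique stretches of 50 bases.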

How the results depend on the processing

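No count of called members moved by over 1.5 times under another scaling, filter, tool or the replicate block, and no named value changed sign. With the replicate number as a block, 52 members were higher and 5 lower in shCtrl cells, and 15 higher and 36 lower in shAnxa2 cells; the block moved no count by over 1.5 times. Requiring a 1.2-fold change left 19 members higher in shCtrl cells, 17 lower in shAnxa2 cells, 1 lower in the untreated shAnxa2 line, and 16 higher and 12 lower after OGDR. Without Rps19bp1 and Rpl7l1, and with ribosomal proteins of other names added, 3 were lower in shCtrl cells, and the mean shares were 4.73%, 5.55%, 6.07% and 5.34%. Without the 100 other genes with most counts in the denominator the shares were 5.40%, 6.39%, 6.99% and 6.05%. In the restriction to members with at least 50% unique stretches, chosen after seeing the data, the medians were 0.21 in the untreated lines and -0.22 in the interaction. Leaving out 1 library at a time gave 45 to 55 higher and 4 to 7 lower members in shCtrl cells, 9 to 15 and 30 to 37 in shAnxa2 cells, 55 to 61 and 1 to 3 in the untreated lines, 21 to 27 and 18 to 25 after OGDR, and 9 to 14 and 48 to 55 in the interaction; the median after OGDR lay between -0.04 and 0.04. The labels link same-numbered libraries by the number alone. Their deviations correlated at -0.05 to 0.14, with 0.02, 0.04 and 0.13 for OGDR in shAnxa2 cells. These values cannot show whether same-numbered libraries were handled together. Of 960 alternative values for named members, 944 kept their call and 16 lost it, 15 of them when a library was left out.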
